A study of Mus musculus with 4 samples.

Results

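The genes described here are those whose symbol is a cluster of differentiation (CD) number, the naming system for molecules on the surface of white blood cells and other cells. They were taken from the deposited count table as the rows whose symbol is Cd, a number and at most a letter and a digit, with at least 20 counts summed over the 4 libraries; Cd33, Cd34, Cd44, Cd47, Cd74 and Cd93 were left out. Of 35927 rows with counts, 87 matched the name pattern, 6 were left out by name, 40 were below the count minimum and 41 remained. The member with the fewest counts was Cd163l1 with 23, and just below the minimum lay Cd200r4 with 19 and Cd7, Cd40 and Cd244 with 16 each. The name is the only thing the rule used besides the count minimum, so the members differ in structure, ligand and cell of origin.

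The libraries were made from poly(A) RNA of erythroid progenitors of C57BL/6 mouse fetal liver at E13.5, sorted as CD71-positive and TER119-negative. The mutant libraries came from Rcor1-/- embryos, and the control libraries joined Rcor1+/+ with Rcor1+/- embryos, so that the control pools hold an unstated share of heterozygotes. Rcor1 encodes CoREST, the scaffold of a complex of the histone demethylase Kdm1a and histone deacetylases that represses transcription. Each group had 2 libraries, each made from pooled samples; nothing states that the pools share no litter or day, so the p-values measure the spread between these pools. The mutant libraries held 25186819 and 15053229 counts, and the control libraries 26892375 and 22817080. A level below is in CPM, which is a count scaled by the library's total and TMM factor. A change is on the log2 scale, mutant over control, as the estimate ± its standard error. The adjusted p is that of edgeR's quasi-likelihood test after Benjamini-Hochberg adjustment over 13140 genes.

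Rcor1 itself had 77.9 and 78.9 CPM in the mutant libraries, against 159.7 and 175 CPM in the control libraries. The 7 erythroid marker genes reported (Klf1, Gata1, Epor, Tfrc, Hbb-b1, Alas2 and Slc4a1) were detected in every library and fell in the mutant, by 0.50 to 0.98 on the log2 scale. Of all genes tested, 29.2% fell. Each list of markers of other cells took at most 0.133% of a library's counts. All 41 members together took 0.0971% and 0.0940% in the mutant libraries and 0.0877% and 0.0869% in the control libraries. Macrophage genes took 0.00243% and 0.00231% of counts in the mutant libraries and 0.00178% and 0.00179% in the control libraries, and B lineage genes 0.0000794% and 0.0000664% against 0.0000632% and 0.0000394%. Hepatoblast genes took 0.132% and 0.133% of counts in mutants and 0.0884% and 0.0876% in controls, with 6 of 9 higher (66.7%). Endothelial genes took 0.0165% and 0.0161% against 0.0153% and 0.0152%, with 2 of 7 higher (28.6%). Of all genes tested, 28.3% were higher. Bulk libraries do not tell fewer cells of a type from less RNA per cell.

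Most CD-named proteins are receptors, ligands or adhesion molecules. Tetraspanins, which cross the membrane repeatedly, gather integrins and other receptors into membrane patches. A group of small proteins held by a glycosylphosphatidylinositol (GPI) anchor includes the complement shields CD55 and CD59, which protect red cells from lysis by their own plasma, and CD24, which marks immature erythroid cells in the mouse. B7 proteins, SLAM receptors and the CD3 and CD79 chains are known mainly from lymphocytes and myeloid cells, where they carry or tune antigen receptor signals.

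Of the 41 members, 39 passed the filter on low counts and were tested. In the mutant 25 rose, 6 fell and 8 did not pass. The share past the threshold was 79.5%, beside a background of 57.5% over all genes tested, with 64.1% higher and 15.4% lower among the members, beside 28.3% higher and 29.2% lower over all genes tested. The changes of 19 of the 25 were at least 2-fold, a share of 48.7% beside 11.7% of all genes, and those of 4 of the 6 that fell were at least 2-fold (Cd248, Cd5l, Cd82 and Cd36), a share of 10.3% beside 1.80%. The median log2 fold change of the tested members was 0.89, and 0.01 over all genes tested. In 35 of the 39 the mutant and control libraries did not overlap, as in 77.9% of all genes tested. These shares are only a description. The reason is that 12 members were at the filter level of 0.417 CPM in both mutant libraries but not in both control libraries. They were tested only because of the mutant libraries, and 10 of those 12 rose. Among the 27 members at that level in all 4 libraries, 15 rose, 6 fell and 6 did not pass, which is 55.6% higher and 22.2% lower, beside 26.2% and 31.7% of the 11904 genes at that level in all 4. With library totals in place of TMM factors the median of all genes moved to 0.15, the split over all genes moved from 3723 higher and 3835 lower to 5112 and 2553, and 26 members were higher and 4 lower.

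**Figure D1:**
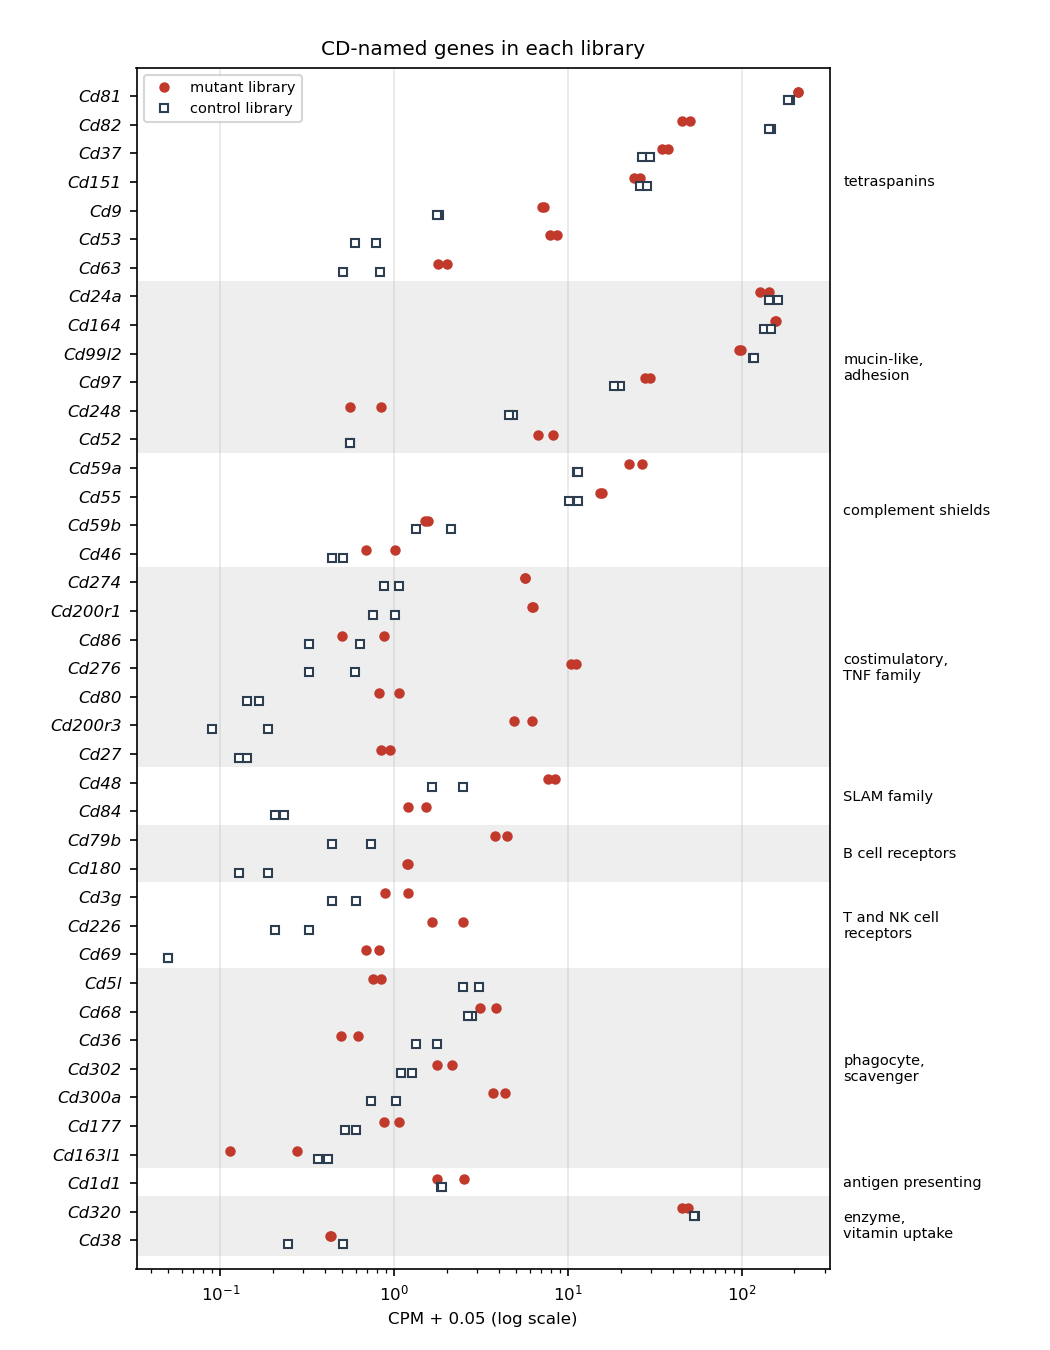
Level of each of the 41 CD-named genes in every library, as CPM + 0.05 on a log axis; filled circles are the 2 mutant libraries and open squares the 2 control libraries, grouped by role. Cd82, Cd248, Cd5l and Cd36 lie lower in both mutant libraries, and Cd200r3, Cd276 and Cd69 lie well to the right of their control values.

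The 11 members with at least 10 CPM in controls changed little, apart from Cd82 and Cd59a. Of these 11, 6 rose (54.5%), 3 fell (27.3%) and 2 did not pass, beside 28.3% higher and 29.2% lower among all genes tested. Their log2 fold changes ran from -1.59 to 1.11, with a median of 0.16. These 11 members took 0.0876% and 0.0845% of counts in the mutant libraries and 0.0850% and 0.0841% in the control libraries. The 30 members under 10 CPM in controls took 0.00945% and 0.00942% of counts in the mutant libraries and 0.00266% and 0.00277% in the control libraries. Of the 28 of these that were tested, 19 rose (67.9%) and 3 fell (10.7%), beside 28.3% and 29.2% of all genes tested. However, 12 of the 28 were tested only because of the mutant libraries and gave 10 of the 19 rises. The other 16, at the filter level in all 4 libraries, held 9 that rose and 3 that fell. The share higher was 56.2%, beside 26.2% of all genes at that level in all 4.

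**Figure D2:**
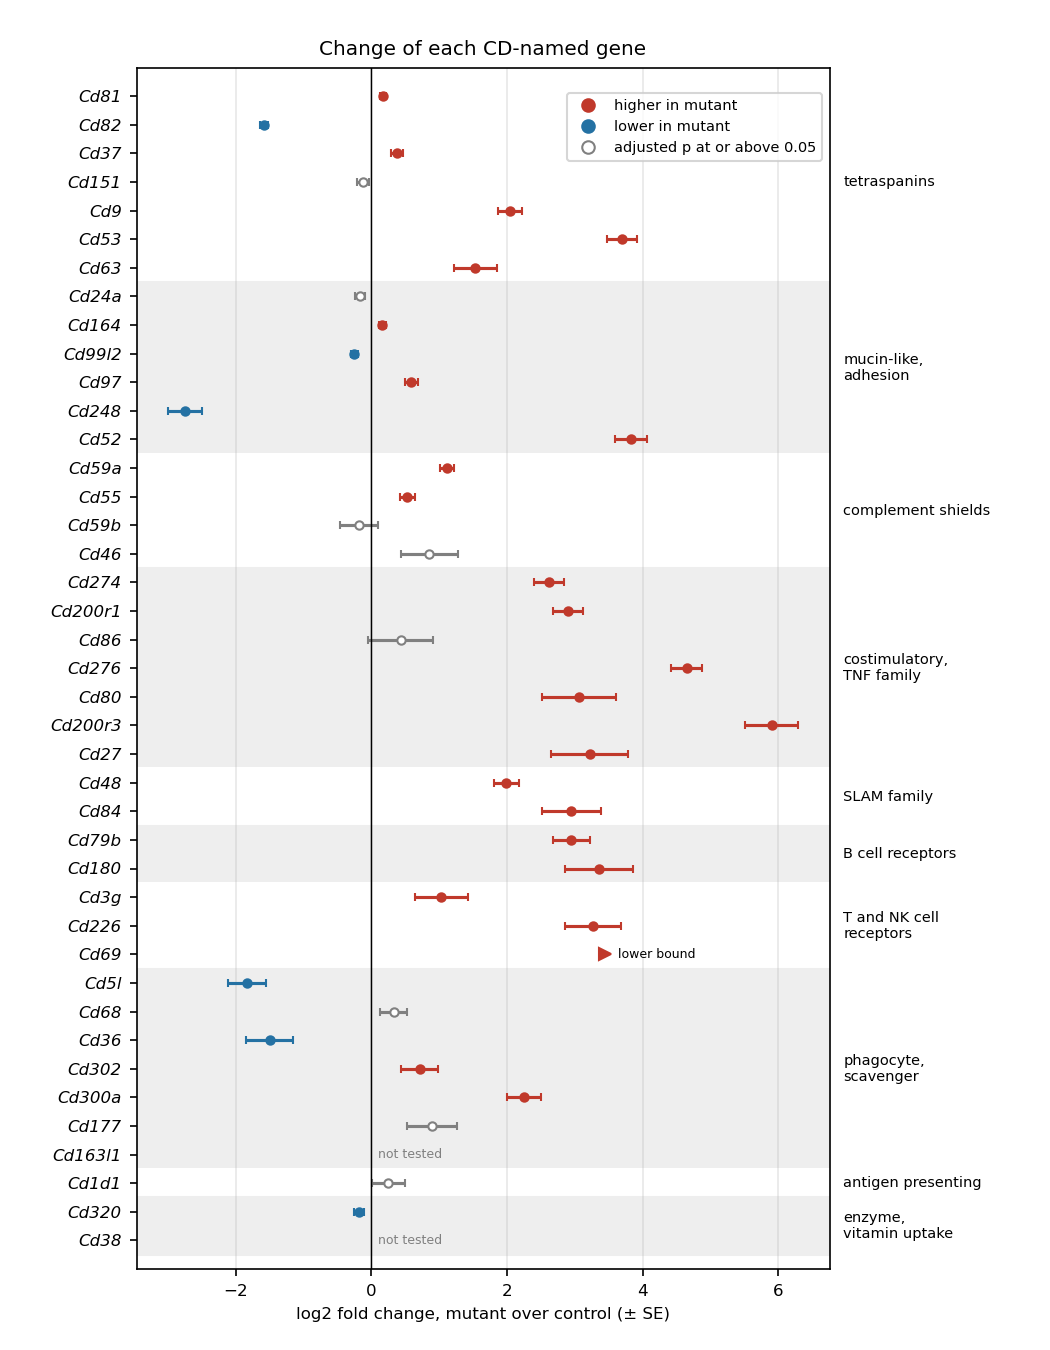
Change of each tested member on the log2 scale, mutant over control, with bars of 1 standard error; red marks members that rose, blue those that fell and open grey those that did not pass adjusted p 0.05. Cd69, with no control count, is drawn as an arrow at its lower bound of 3.44, and the 2 members that were not tested, Cd38 and Cd163l1, have no point.

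Of the 7 tetraspanins with a CD name, 5 rose (71.4%), 1 fell (14.3%) and 1 did not pass, beside 28.3% higher and 29.2% lower among all genes tested. Cd82 (ENSMUSG00000027215), a tetraspanin of progenitors and leukocytes, had 1324 and 714 counts in the mutant libraries, against 3748 and 3107 counts in the control libraries, which is 47.7 ± 3.25 CPM in mutants and 145 ± 2.89 CPM in controls (SD, n = 2 each). It was thus lower in both mutant pools, 3.02-fold (-1.59 ± 0.06, adjusted p = 7.58e-13). Cd53 (ENSMUSG00000040747), a pan-leukocyte tetraspanin, went the other way, with 8.58 and 7.83 CPM in mutants and 0.547 and 0.734 CPM in controls. This was a 12.9-fold rise (3.69 ± 0.22, adjusted p = 2.82e-10) that rested on 14 and 16 control counts. Cd9 (ENSMUSG00000030342), which platelets, megakaryocytes and stem cells carry, had 7.18 and 7.06 CPM in mutants and 1.76 and 1.70 CPM in controls, a rise of 2.04 ± 0.18 (adjusted p = 3.67e-08). Cd63, a tetraspanin of late endosomes and granules, had 1.74 and 1.97 CPM in mutants and 0.782 and 0.459 CPM in controls, and rose by 1.53 ± 0.32 (adjusted p = 5.87e-04). For these 4 genes the 2 groups did not overlap, as in 77.9% of all genes tested.

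The other CD-named tetraspanins moved by less than 1.5-fold. Cd81, which joins the B cell co-receptor, had 209 and 209.7 CPM in mutants and 189 and 184 CPM in controls, a change of 0.17 ± 0.05 (adjusted p = 0.00528). Without control replicate 2 this change was 0.13 with an adjusted p of 0.056. Cd37, known from lymphocytes, had 37.7 and 34.7 CPM in mutants and 29.5 and 26.4 CPM in controls, and rose by 0.38 ± 0.09 (adjusted p = 0.00122). Cd151, a partner of laminin-binding integrins, had 23.8 and 26.0 CPM in mutants and 25.9 and 28.2 CPM in controls; the groups overlapped and it did not pass (-0.12 ± 0.09, adjusted p = 0.236). With library totals its value was 0.01.

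**Figure D3:**
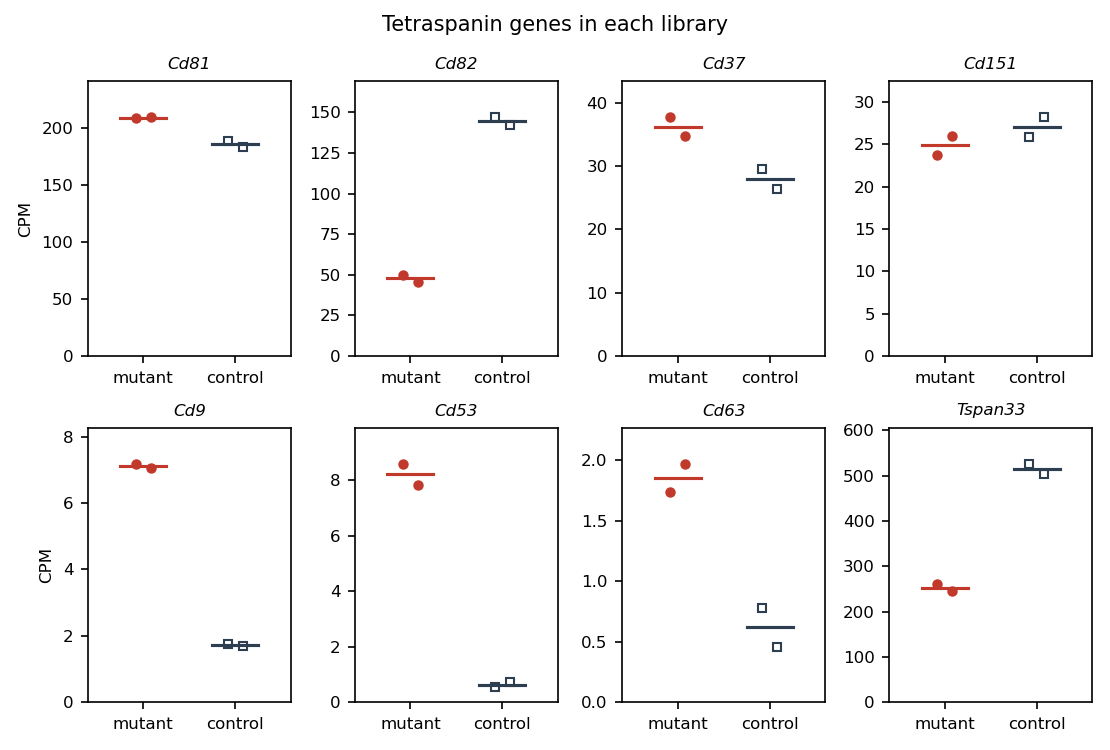
CPM of the 7 CD-named tetraspanins and of Tspan33 in each library, with a bar at each group's mean; the axes start at 0 and differ between panels. Cd82 and Tspan33 are lower in both mutant libraries, Cd9, Cd53 and Cd63 are higher, and the Cd151 groups overlap.

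Of 21 listed tetraspanins without a CD name, 17 were tested. In the mutant 8 rose, 5 fell and 4 did not pass, with a median of 0.16; this is 47.1% higher and 29.4% lower, beside 28.3% and 29.2% of all genes tested. Among the 15 at the filter level in all 4 libraries, 46.7% were higher and 33.3% lower, beside 26.2% and 31.7% of all such genes. Tspan2 (2.29 ± 0.44), Tspan13 (0.72 ± 0.07) and Tspan5 (0.72 ± 0.08) rose the furthest, with Tspan2 at the filter level only in the mutant libraries. Tspan33, which erythroid progenitors are known to need, fell by 1.02, Tspan15 by 0.65 and Tspan4 by 0.49. Rom1 (-0.26) and Tspan3 (-0.25) were the other 2 that fell. With library totals, with upper quartile scaling and without mutant replicate 2, 3 genes of this list fell in place of 5. Among 6 tested partners of tetraspanins, Ifitm2 (1.35), Ifitm3 (1.04) and Ptgfrn (0.67) rose, and Adam10, Igsf8 and Emp3 did not pass. With DESeq2, and with control replicate 1 left out, 1 gene of this list was higher, and with library totals 5 were.

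The stretch before and after the start site is shown for 4 strong risers to let their promoters be compared. The windows run from 250 bases before the start to 50 after it in RefSeq's GRCm38.p6 table, which matched 31 of the 41 members. Capitals mark matches to the PU.1 motif GAGGAAG and to the GATA motif AGATAA, on either strand. Cd53 is at chr3:106790100-106790399 (minus strand), Cd9 at chr6:125494711-125495010 (minus strand), Cd276 at chr9:58554984-58555283 (minus strand) and Cd200r3 at chr16:44943428-44943727 (plus strand).
Cd53: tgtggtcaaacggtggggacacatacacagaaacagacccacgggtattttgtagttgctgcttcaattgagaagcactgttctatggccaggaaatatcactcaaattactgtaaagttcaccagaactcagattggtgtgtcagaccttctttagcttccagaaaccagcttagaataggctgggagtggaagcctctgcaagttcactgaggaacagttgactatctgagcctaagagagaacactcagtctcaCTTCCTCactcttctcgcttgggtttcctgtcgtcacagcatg
Cd9: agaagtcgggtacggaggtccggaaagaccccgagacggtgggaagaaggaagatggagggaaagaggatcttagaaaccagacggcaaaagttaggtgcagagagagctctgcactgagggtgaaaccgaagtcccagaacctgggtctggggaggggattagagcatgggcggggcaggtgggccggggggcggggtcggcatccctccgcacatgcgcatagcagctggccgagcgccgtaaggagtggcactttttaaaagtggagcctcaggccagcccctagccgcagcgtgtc
Cd276: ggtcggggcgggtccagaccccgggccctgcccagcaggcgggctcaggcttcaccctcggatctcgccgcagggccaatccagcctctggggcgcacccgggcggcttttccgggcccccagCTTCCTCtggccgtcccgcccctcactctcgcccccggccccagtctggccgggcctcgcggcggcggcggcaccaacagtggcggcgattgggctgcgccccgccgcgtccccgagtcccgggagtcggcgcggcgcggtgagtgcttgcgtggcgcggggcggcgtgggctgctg
Cd200r3: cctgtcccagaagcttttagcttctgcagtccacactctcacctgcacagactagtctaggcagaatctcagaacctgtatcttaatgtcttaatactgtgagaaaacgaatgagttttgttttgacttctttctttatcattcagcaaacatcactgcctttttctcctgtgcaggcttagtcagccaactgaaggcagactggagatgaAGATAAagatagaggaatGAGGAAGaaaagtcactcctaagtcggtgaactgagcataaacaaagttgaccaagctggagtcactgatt
The Cd53 match is on the reverse strand, at bases 258 to 264 of the window, just after the start. The Cd276 match is also on the reverse strand, at bases 124 to 130. Cd200r3 holds the GATA letters at bases 212 to 217 and the PU.1 letters at bases 230 to 236, and the Cd9 window holds none of them. The windows of Cd48 and Cd84, which also rose, are not printed and held no match either. The 4 printed windows are thus no measure of how often risers hold a match. Counted over windows, GAGGAAG was in 9 of 37 member windows and in 13.6% of the 32851 windows of the table. Counted over genes, 9 of the 31 matched members had it, and so did 5 of the 14 that rose at least 2-fold (Cd53, Cd63, Cd276, Cd200r3 and Cd300a). The others with it were Cd37, which rose by less, and Cd82, Cd5l and Cd320, which fell. The share of all genes with it was not computed, so these counts over genes have no background beside them. AGATAA was in 6 of 37 member windows and 11.2% of all. The Gfi1 and Gfi1b motif AATCANNGC was in 2 member windows, those of Cd320 and Cd68, and in 3.28% of all. Both matches in the Cd200r3 window lie apart from each other, and a match is a run of letters, not a shown binding site.

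Of the 6 mucin-like and adhesion genes, 3 rose and 2 fell, and the largest moves were in opposite directions. Cd52 (ENSMUSG00000000682), a very short GPI-anchored glycoprotein of lymphocytes and monocytes, had 6.69 and 8.08 CPM in mutants, against 0.508 and 0.504 CPM in controls. Both mutant libraries stood far above both control libraries, 14.2-fold (3.83 ± 0.24, adjusted p = 5.89e-10). Cd248 (ENSMUSG00000056481), endosialin, known from stromal cells and pericytes, had 0.793 and 0.509 CPM in mutants and 4.77 and 4.49 CPM in controls. It was 6.73-fold lower in the mutant (-2.75 ± 0.25, adjusted p = 6.49e-08). Other mesenchymal genes did not go the same way, and of 8 listed, 6 were higher (75.0%) and none lower. Among all genes tested, 28.3% were higher and 29.2% lower. The strongest rises were in Lum (2.50), Postn (2.10) and Pdgfra (1.89), all below the filter level of 0.417 CPM in both control libraries. The part of mesenchymal genes in the change of Cd248 was not tested. The list took 0.00254% and 0.00233% of counts in mutants and 0.000707% and 0.000723% in controls.

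Cd97, an adhesion G protein-coupled receptor that binds CD55, had 27.6 and 29.7 CPM in mutants and 19.7 and 18.2 CPM in controls, a rise of 0.59 ± 0.09 (adjusted p = 1.74e-05). It overlaps Ddx39 on the opposite strand, which fell by 0.45 and had 771 CPM in mutants and 1055 CPM in controls on average, and reads of the 2 genes may not have been told apart. Cd164, the sialomucin endolyn of haematopoietic progenitors, had 157 and 154 CPM in mutants and 133 and 146 CPM in controls. Its rise of 0.16 ± 0.05 (adjusted p = 0.0143) did not pass with DESeq2 (adjusted p = 0.0575) or when control replicate 1 (0.216) or mutant replicate 1 (0.102) was left out. Cd99l2, a relative of the leukocyte migration antigen CD99, had 99.1 and 96.1 CPM in mutants and 115 and 117 CPM in controls, and fell by 0.25 (adjusted p = 6.53e-04). With library totals its change was -0.11 and its adjusted p 0.085. Cd24a, the heat-stable antigen of immature erythroid and lymphoid cells, had 143 and 127 CPM in mutants and 160.1 and 143 CPM in controls, and its adjusted p of 0.0507 lay at the threshold (-0.17 ± 0.07). Of 14 alternatives, 7 put Cd24a past the threshold, with values of -0.17 to -0.26, and none changed its direction. It was -0.26 without control replicate 2 and -0.26 without mutant replicate 1. The other 7 did not put it past the threshold. Its value was -0.03 with library totals (adjusted p = 0.728) and -0.09 with upper quartile scaling (adjusted p = 0.272). Without control replicate 1 it was -0.09, and without mutant replicate 2 it was -0.08.

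Among the complement shields, Cd59a and Cd55 rose, and Cd59b and Cd46 did not pass. Cd59a (ENSMUSG00000032679), which blocks the membrane attack complex, had 22.3 and 26.6 CPM in mutants and 11.2 and 11.3 CPM in controls, a 2.15-fold rise (1.11 ± 0.10, adjusted p = 1.05e-07). Its neighbour and near copy Cd59b had 1.51 and 1.46 CPM in mutants and 2.07 and 1.28 CPM in controls, with overlapping groups (-0.19 ± 0.28, adjusted p = 0.588). Without control replicate 1 the Cd59b value was 0.21. Reads shared by the pair may have been split between them or dropped. Cd55, which speeds the decay of complement convertases and binds CD97, had 15.7 and 15.2 CPM in mutants and 10.1 and 11.4 CPM in controls, a rise of 0.53 ± 0.11 (adjusted p = 4.74e-04). Cd46, a cofactor of complement cleavage that in the mouse is known mainly from the testis, had 17 and 15 counts in mutants and 10 and 10 in controls (0.85 ± 0.42, adjusted p = 0.0952).

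Other complement genes were tested beside them. Of 6 tested complement regulators and receptors, Itgam (2.16), Itgb2 (1.80), C3ar1 (1.47) and Cfi (0.59) rose. The share higher was 66.7% and the share lower 16.7%, beside 28.3% and 29.2% of all genes tested. C3ar1 was at the filter level only in the mutant libraries. Cr1l, the membrane regulator Crry of mouse red cells, fell (-0.28, adjusted p = 0.0258), and Serping1 did not pass. The call of Cr1l was lost with library totals, upper quartile scaling and DESeq2, and when control replicate 2 or either mutant library was left out. The GPI anchor that CD55, CD59, CD24, CD48 and CD52 share is built by a set of enzymes and helper proteins. Of 30 rows for the 28 listed GPI anchor genes, 27 were tested, 10 rose, 8 fell and 9 did not pass, with a median of 0.12. These shares, 37.0% higher and 29.6% lower, lie near those of all genes tested (28.3% and 29.2%). Pigz (2.14), Pigf (0.57) and Pigv (0.53) led the rises, with Pigz at the filter level only in the mutant libraries. Pgap3 (-1.02), Pigq (-0.96) and Pigp (-0.79) led the falls. With library totals 16 rose.

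Of 7 genes of the B7, TNF receptor and CD200 receptor families, 6 rose at least 2-fold and 1 did not pass, beside 11.7% of all genes tested that rose at least 2-fold. Of the 6, Cd276, Cd80, Cd27 and Cd200r3 were at the filter level in both mutant libraries but not in both control libraries, and Cd274 and Cd200r1 in all 4 libraries. Cd276 (ENSMUSG00000035914), the B7 family protein B7-H3, had 11.0 and 10.3 CPM in mutants and 0.547 and 0.275 CPM in controls. The rise was 25.0-fold (4.65 ± 0.23, adjusted p = 3.35e-11), on 14 and 6 control counts, and became 5.24 without control replicate 1. Cd274, the B7 family ligand PD-L1, had 5.59 and 5.60 CPM in mutants and 0.821 and 1.01 CPM in controls, a rise of 2.62 ± 0.22 (adjusted p = 2.1e-08). Cd80, a ligand of CD28 and CTLA4, had 27 and 12 counts in mutants and 3 and 2 in controls (3.06 ± 0.54, adjusted p = 1.14e-04). Its relative Cd86 had 12 and 13 counts in mutants and 15 and 6 in controls, with overlapping groups, and did not pass (0.43 ± 0.48, adjusted p = 0.468); with single libraries left out its value ran from 0.02 to 1.10. Cd27, the receptor for CD70 and a member of the TNF receptor family, had 21 and 14 counts in mutants and 2 and 2 in controls (3.22 ± 0.57, adjusted p = 1.2e-04). Cd27 overlaps Vamp1 on the opposite strand, which had 7.52 and 8.91 CPM in mutants and 6.92 and 8.12 CPM in controls and did not pass.

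Both receptors of the CD200 family that reached the count minimum rose. Cd200r1, which passes an inhibitory signal to myeloid cells when it binds CD200, had 6.20 and 6.17 CPM in mutants and 0.704 and 0.963 CPM in controls. That rise was 7.46-fold (2.90 ± 0.22, adjusted p = 7.04e-09). Cd200r3 (ENSMUSG00000036172), an activating relative known in the mouse from basophils and mast cells, had 127 and 97 counts in mutants and 1 and 3 in controls. Its fitted rise of 5.90 ± 0.39 (adjusted p = 1.11e-09) became 5.22 when control replicate 1 was left out and 6.90 when control replicate 2 was, so its size is loosely fixed. Beside it, 2 of 3 tested mast cell, basophil and eosinophil genes rose, Cpa3 (3.76 ± 0.36) and Prg2 (1.83 ± 0.11), and Epx did not pass. Of all genes tested, 28.3% rose. Cpa3 was below the filter level in both control libraries. The list of 8 took 0.00270% and 0.00291% of counts in mutants and 0.000747% and 0.000763% in controls. The basophil protease gene Mcpt8 had 0 and 0 counts in mutants against 1 and 2 in controls, and of the IgE receptor chains, Fcer1a had 0 and 2 against 0 and 0 and Ms4a2 10 and 12 against 1 and 5. The part of such cells in the rise of Cd200r3 was not tested.

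Both SLAM family members, Cd48 and Cd84, rose, of which Cd84 was at the filter level only in the mutant libraries. Cd48 (ENSMUSG00000015355), a GPI-anchored ligand of CD244 and CD2 that is used to sort blood progenitors from stem cells, had 7.56 and 8.40 CPM in mutants and 1.60 and 2.43 CPM in controls. It rose 3.97-fold (1.99 ± 0.19, adjusted p = 1.2e-07). Cd84, which binds itself on other cells, had 39 and 18 counts in mutants and 4 and 4 in controls (2.95 ± 0.44, adjusted p = 2.23e-05). In GENCODE M21 a single protein-coding gene, Slamf1, lies between them on chromosome 1. Slamf1, known as CD150, was one of 2 other SLAM genes that could be tested and reached the filter level only in the mutant libraries. It had 1.78 and 1.97 CPM in mutants and 0.274 and 0.138 CPM in controls, a rise of 3.10 ± 0.40 (adjusted p = 3.93e-06). The other, Ly9, had 66 and 35 counts in mutants and 56 and 63 in controls and did not pass (-0.08 ± 0.22). The remaining 7 of the 9 listed SLAM genes and adaptors were too scarce to test.

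**Figure D4:**
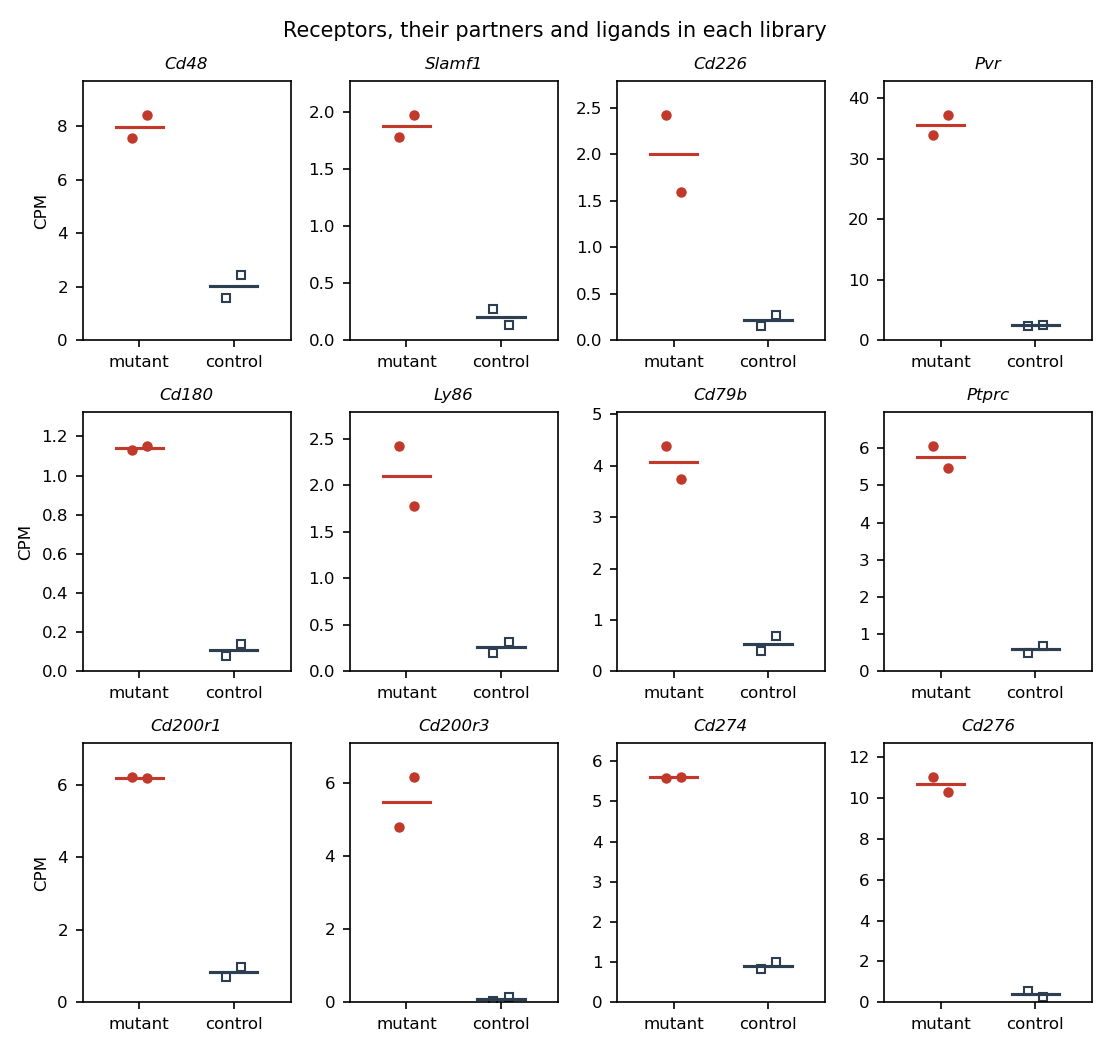
CPM of 8 CD-named receptors and ligands and of Slamf1, Pvr, Ly86 and Ptprc in each library, with a bar at each group's mean; the axes start at 0 and differ between panels. The 12 genes drawn all rose, and in each panel both mutant libraries lie above both control libraries. Genes of the same families that did not pass, such as Cd86 and Ly9, are not drawn. The groups did not overlap in 77.9% of all genes tested.

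Both genes of the B cell receptor group rose, and both were at the filter level in both mutant libraries but not in both control libraries. Cd79b (ENSMUSG00000040592), a signalling chain of the B cell receptor, had 4.38 and 3.75 CPM in mutants and 0.391 and 0.688 CPM in controls, a 7.72-fold rise (2.95 ± 0.28, adjusted p = 1.04e-07). Its partner chain Cd79a had 1 and 0 counts in mutants and 1 and 0 in controls. Cd180, a toll-like receptor relative that works with the Ly86 protein, had 30 and 18 counts in mutants and 2 and 3 in controls (3.36 ± 0.50, adjusted p = 2.25e-05). Ly86 also rose, with 2.42 and 1.78 CPM in mutants and 0.196 and 0.321 CPM in controls (3.06 ± 0.38, adjusted p = 2.5e-06). Cd180 overlaps Mast4 on the opposite strand, and Mast4 rose by 0.44 ± 0.12. Of the 8 B lineage marker genes none reached the filter, and Pax5 had 4 and 1 counts in mutants and 2 and 1 in controls, Ebf1 0 and 0 against 1 and 0. The part of B lineage cells in the rises of Cd79b and Cd180 was not tested.

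Genes that carry the B cell receptor signal in B cells, and similar signals in myeloid and erythroid cells, were examined beside them. The 11 of 16 that could be tested rose, with a median of 0.67, beside 28.3% higher among all genes tested. Prkcb was at the filter level only in the mutant libraries, and the other 10 were at it in all 4 libraries. Prkcb (2.33 ± 0.53), Vav1 (1.47 ± 0.06) and Pik3ap1 (1.40 ± 0.22) led them, and the smallest rise was 0.25. The adaptor Blnk did not reach the filter and had 2 and 0 counts in mutants and 10 and 5 in controls. With no filter beyond 1 count Blnk was lower (-2.64, adjusted p = 0.0214). The kinase gene Blk had 0 and 0 counts in mutants and 0 and 2 in controls.

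Cd69, Cd226 and Cd3g, known from T cells and natural killer cells, rose as well. Each of the 3 was at the filter level in both mutant libraries but not in both control libraries, so that their joint direction is no support. Cd69 (ENSMUSG00000030156), an early activation antigen of the C-type lectin family, had 17 and 12 counts in mutants and none in either control library. Against a floor of 3 counts over the control group it was at least 10.9-fold higher in the mutant (adjusted p = 4.16e-05). Cd226, an adhesion receptor for the proteins of Pvr and Pvrl2, had 2.42 and 1.59 CPM in mutants and 0.156 and 0.275 CPM in controls (3.27 ± 0.41, adjusted p = 3.06e-06). The gene of its ligand, Pvr, had 34.0 and 37.2 CPM in mutants and 2.42 and 2.52 CPM in controls, a rise of 3.84 ± 0.12 (adjusted p = 5.76e-14), and Pvrl2 rose by 0.65 ± 0.08. Cd3g, a chain of the T cell receptor complex, had 22 and 18 counts in mutants and 10 and 12 in controls. Its change of 1.03 ± 0.39 (adjusted p = 0.0332) did not pass when single libraries were left out: the adjusted p was 0.262 without control replicate 1, 0.0548 when it was control replicate 2 and 0.163 when it was mutant replicate 2. DESeq2 gave 0.237.

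T and natural killer cell markers were uneven. Klrd1 and Ncr1 had no count in any library, Il2rb had 1 count in all, Zap70 had 3 and 1 in mutants and 1 and 0 in controls, and Thy1 had 0 and 4 in mutants and none in controls. The other 3 were expressed. Lck had 6.95 and 6.94 CPM in mutants and 6.02 and 6.19 CPM in controls and did not pass. Lat had 7.86 and 8.84 CPM in mutants and 1.76 and 2.43 CPM in controls (2.00 ± 0.18), and Tcf7 had 2.04 and 2.54 CPM in mutants and 0.508 and 0.367 CPM in controls (2.33 ± 0.32). This list of 8 took 0.00179% and 0.00195% of counts in mutants and 0.000792% and 0.000859% in controls, and the part of such cells in the rises of Cd69, Cd226 and Cd3g was not tested. The CD3 chains Cd3d and Cd3e had 3 and 0, and 2 and 0, counts in mutants and none in controls. Of 12 tested genes of T cell receptor signalling, 9 rose, none fell and 3 did not pass (Lck, Plcg1 and Cblb), with a median of 1.11, beside 28.3% higher among all genes tested. Skap1 (4.93 ± 0.32) and Ptprc (3.28 ± 0.24), which encodes the pan-leukocyte phosphatase CD45, rose the furthest, followed by Prkcq (2.23 ± 0.10). Skap1 was at the filter level in both mutant libraries (9.33 and 7.44 CPM) but not in both control libraries (0.430 and 0.0917 CPM). Ptprc had 6.05 and 5.47 CPM in mutants and 0.508 and 0.688 CPM in controls. Its groups did not overlap, as in 77.9% of all genes tested.

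Among 7 genes of phagocytes and scavenger receptors, 2 rose, 2 fell, 2 did not pass and 1 was not tested. Each direction holds 33.3% of those tested, beside 28.3% higher and 29.2% lower among all genes tested. Cd300a, an inhibitory receptor of myeloid and mast cells, had 4.31 and 3.63 CPM in mutants and 0.978 and 0.688 CPM in controls, a rise of 2.25 ± 0.25 (adjusted p = 6.94e-07). Cd5l (ENSMUSG00000015854), a secreted scavenger receptor-like protein of tissue macrophages, had 0.793 and 0.700 CPM in mutants and 2.42 and 3.03 CPM in controls, and was 3.56-fold lower (-1.83 ± 0.28, adjusted p = 2.44e-05). Cd36 (ENSMUSG00000002944), which takes up long-chain fatty acids and binds thrombospondin, had 15 and 7 counts in mutants and 33 and 37 in controls, and was 2.83-fold lower (-1.50 ± 0.35, adjusted p = 0.00133). Cd302, a C-type lectin receptor, had 45 and 33 counts in mutants and 31 and 23 in controls (0.71 ± 0.27, adjusted p = 0.0337). Leaving out control replicate 1 gave an adjusted p of 0.0836, control replicate 2 one of 0.145 and mutant replicate 2 one of 0.14, and DESeq2 gave 0.235. Cd68, a lysosomal protein of macrophages, did not pass (0.33 ± 0.20, adjusted p = 0.167), nor did Cd177, a GPI-anchored protein of neutrophils (0.89 ± 0.37, adjusted p = 0.0507). Cd163l1 had 6 and 1 counts in mutants and 8 and 8 in controls.

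Macrophage genes moved unevenly beside these. Of 8 tested macrophage markers, Csf1r (1.28) and Emr1 (0.54) rose and the scavenger receptor gene Marco fell by 2.97. The other 5 did not pass (Vcam1, C1qa, C1qb, C1qc and Mrc1). The shares, 25.0% higher and 12.5% lower, stand beside 28.3% and 29.2% of all genes tested. Marco had 0.378 and 0.445 CPM in mutants and 3.36 and 3.03 CPM in controls, a fall in both mutant libraries like that of Cd5l. Vsig4 had no count in any library, and the haemoglobin scavenger receptor gene Cd163 had none either. The part of macrophages in the fall of Cd5l was not tested.

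The remaining members changed little. Cd320, the receptor for vitamin B12 bound to transcobalamin, had 48.6 and 45.2 CPM in mutants and 53.8 and 52.7 CPM in controls, and fell by 0.18 (adjusted p = 0.041). The call was lost in 8 of 14 alternatives, with adjusted p up to 0.626 with library totals, and with 0.116 without control replicate 1 and 0.233 without mutant replicate 2. Tcn2, the gene of transcobalamin itself, rose by 0.95 ± 0.13. Cd1d1, which presents lipids to natural killer T cells, had 65 and 27 counts in mutants and 46 and 40 in controls and did not pass (0.25 ± 0.24, adjusted p = 0.402), with -0.08 without mutant replicate 1. Cd38, an enzyme that degrades NAD, had 10 and 6 counts in mutants and 5 and 10 in controls and was too scarce to test.

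Of 20 listed ligands, receptors and partners of CD-named proteins, 11 were tested, 8 rose, 1 fell and 2 did not pass. This stands beside 28.3% higher and 29.2% lower among all genes tested. Some of the 20 belong with CD-named genes below the count minimum, such as Cd72, Cd40 and Cd163, so the tally is not of partners of members alone. Pvr, Ly86 and Hmox1 (2.71 ± 0.09) rose the furthest, with Ly86 at the filter level only in the mutant libraries. Hmox1 encodes the haem oxygenase that macrophages use after taking up haemoglobin. Sema4d, whose protein binds CD72, fell by 0.36, and Ptprj and Cubn did not pass. The receptors Ctla4 and Tigit and the ligand gene Cd40lg had no count in any library, and Pdcd1, the receptor for the protein of Cd274, had 1 and 2 counts in mutants and none in controls.

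The authors' deposited table of the same comparison, which holds log2 fold changes, listed 39 members, of which 32 had an FDR under 0.05, 28 higher and 4 lower. Of these, 29 also passed here. The authors' deposited table added Cd46, Cd68 and Cd177, and Cd99l2 and Cd320 passed here alone. The sign was the same in 38 of the 39, all but Cd151. The deposited changes of Cd99l2 (-0.11), Cd320 (-0.04) and Cd151 (0.01) equal those found here with library totals. With TMM factors they were -0.25, -0.18 and -0.12, so the 2 sets of calls rest on values that differ in scaling.

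**Figure D5:**
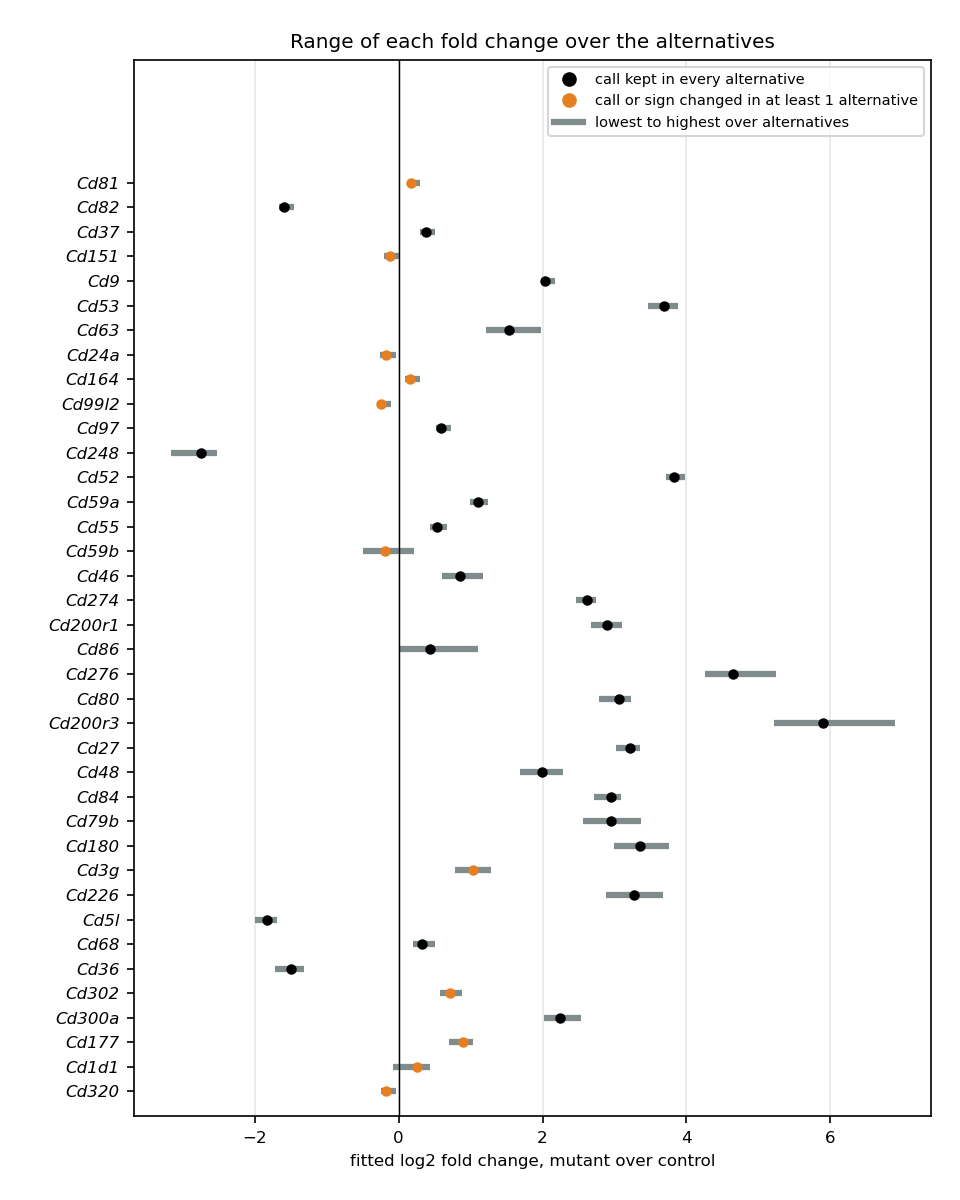
Fitted log2 fold change of each tested member but Cd69 (point) and its lowest and highest value over the alternatives (bar), with black points where the call was the same in every alternative and orange points where a call or sign changed. The orange members lie at small changes, the largest being Cd3g at 1.03, and Cd200r3 has the widest bar, 5.22 to 6.90.

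The plot of ranges over alternatives shows which of these values depend on the settings. Of the 39 tested members, 28 kept the same side of the threshold and the same sign in each alternative that could test them, the added 2-fold threshold left aside. The 11 that did not were Cd81, Cd24a, Cd164, Cd99l2, Cd320, Cd151, Cd59b, Cd1d1, Cd302, Cd177 and Cd3g.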

How the data were processed

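Poly(A) RNA of 2 mutant and 2 control pools was sequenced. The submitters' processing notes name the tools FastQC, Bowtie and edgeR, without versions, and the mouse build mm9. The authors deposited whole-number counts per gene and, per the file headers, a table of their own log2 fold changes with p-values. The counting of reads shared between genes or strands: not given in the sources used here. Columns named WT were matched to the control samples by number.

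Of 35939 rows, 12 held NA and were left out. Counts were fitted with edgeR 4.0.16 (filterByExpr, TMM, quasi-likelihood with robust, two-sided) in R 4.3.3, with Benjamini-Hochberg adjustment over 13140 genes at 0.05. The coefficient of variation between pools beyond counting noise, from the common dispersion, was 4.81%. Small changes can thus pass in genes with many counts, and p-values measure only the spread between pools. Genes with few counts spread further. Standard errors were taken as the size of the estimated change divided by the root of the F statistic. Chi-square per gene was 3.76 between mutants and 6.06 between controls, so no library was counted as a duplicate.

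The members and lists were chosen with earlier results of these data known. Counts per library were to be given for called members that changed at least 2-fold or reached 20 CPM; the rest are named with their change, and in each list at most 3 called genes per direction. Partner genes named beside the member they bind, and Blnk, Blk and Pdcd1, were picked after their values were seen. Syk and Siglec10 were not found by symbol. One gene of the erythroid marker list is not reported here. Promoter windows are from RefSeq (GRCm38.p6) and neighbouring genes from GENCODE M21, used for names, order and overlap, since the files hold no coordinates. Fits with limma-voom 3.58.1, with DESeq2 1.42.0, with the exact test of edgeR and the other settings named in the closing section were alternatives.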

Additional observations from a re-analysis of the deposited data

How the results depend on the processing

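The counts of members called, higher and lower stayed within 1.5 times of 31, 25 and 6 under each scaling, filter, test and left-out library tried; for other count minimums only the count called was computed. The numbers ran from 26 to 33 called without the added 2-fold threshold, which gave 23. With library totals 2553 genes in all were lower, and the added 2-fold threshold left 1769 genes in all, 1532 higher and 237 lower, and 25 calls in the partner lists. The values that did not pass and changed sign were these: Cd151 was 0.01 with library totals, Cd59b ran from -0.49 to 0.21 and Cd1d1 from -0.08 to 0.44 with single libraries left out. The replicate numbers showed a correlation of 0.373 between the replicate differences of the 2 groups over 9522 genes, with only 2 pairs and no label that pairs them; the replicate block gave 33 called members, adding Cd24a and Cd177, and 8402 genes in all. A minimum of 10 or 50 counts gave 48 or 35 members, of which 31 or 28 were called. Members with under 10 control counts in all (6 of those that rose) have loosely fixed sizes.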

Other observations

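Of the 40 CD-named genes below the count minimum, 11 had no count in any library, among them the T cell co-receptor genes Cd8a and Cd8b1, the macrophage receptor gene Cd163 and the lectin genes Cd207 and Cd209b. Some of the others were seen mostly in the mutant libraries. Cd244, the receptor for CD48, had 10 and 6 counts in mutants and 0 and 0 in controls. Cd7, an antigen of early lymphoid cells, had 7 and 8 counts in mutants and 1 and 0 in controls. Cd200r4, another CD200 receptor relative, had 10 and 6 counts in mutants and 0 and 3 in controls. Cd40 had 5 and 2 counts in mutants and 7 and 2 in controls, and Cd96 6 and 1 against 5 and 2, so both lists of values overlap.

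Members that lie close together on a chromosome did not always move alike. In GENCODE M21 no protein-coding gene lies between Cd59b and Cd59a on chromosome 2, with log2 fold changes of -0.19 and 1.11. Between Cd1d1 and Cd5l on chromosome 3 lie 2 such genes, and their values were 0.25 and -1.83. Cd200r1 and Cd200r3 on chromosome 16 are separated by 2 genes and had 2.90 and 5.90, and Cd27 and Cd9 on chromosome 6 by 5 genes with 3.22 and 2.04. Of the 41 members, Cd52 and Cd37 also overlap protein-coding genes on the opposite strand, named Aim1l and Tead2 in the count table, which rose by 1.57 ± 0.35 and 1.18 ± 0.29.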
